A study of Mus musculus with 18 samples.

Results

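The activity-regulated genes Arc, Npas4, Nr4a1, Nr4a2, Nr4a3, Egr1, Egr2, Egr3, Bdnf and Dusp6 were followed through the microglia, astrocyte and neuron fractions of mouse frontal cortex. They were taken by name, with no Fos or Jun gene among them, and make up 10 of the 56953 gene identifiers counted. Mice received clozapine at 10 mg/kg, risperidone at 1 mg/kg or vehicle by daily intraperitoneal injection for 14 days, from postnatal day 60 to day 74, and were killed on day 75. Clozapine and risperidone are antipsychotics. Animals of every group were B6;D2-Tg(S100B-EGFP)1Wjt/J, a line with an S100B-EGFP transgene. The labels give males and females in 1 place and adult males in another. The frontal cortices of 5 animals were combined into each pool, and each treatment had 1 pool in batch 1 and 1 in batch 2. From each pool, endothelial cells were removed and microglia captured on CD45. Oligodendrocyte-lineage cells were then removed, and neurons and astrocytes captured on Thy1 and HepaCAM. The 18 libraries therefore form 9 groups of n = 2, and the 3 libraries of a pool share their animals.

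Activity-regulated genes are switched on when calcium enters a depolarised neuron and activates kinases such as ERK, which act on the factors CREB, SRF and MEF2 at their promoters. In the cortex they link synaptic input to lasting changes in synapses. Arc acts at the synapse itself, where it promotes removal of AMPA receptors, while Npas4, the NR4A receptors and the EGR zinc-finger proteins are transcription factors. Bdnf encodes a secreted neurotrophin that signals through TrkB, and Dusp6 encodes a phosphatase that switches ERK off. Several of them, the EGR and NR4A genes above all, are also induced in other cells, immune cells included.

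Libraries held 4714468 to 13391163 assigned reads. Levels are CPM, read counts set to a common library total and scaled over the 18 libraries. The fractions carried their defining markers but were not pure. The microglial receptor Cx3cr1 averaged 401 ± 122 CPM in the microglia fraction, 34.4 ± 12.5 in the astrocyte fraction and 25.3 ± 27.4 in the neuron fraction (SD, n = 6 each). The neuronal splicing factor Rbfox3 averaged 84.4 ± 50.8, 113 ± 42.8 and 309 ± 76.5 CPM in the same fractions, and the astrocyte water channel Aqp4 averaged 74.2 ± 24.9, 321 ± 92.2 and 132 ± 42.1 CPM. Summed over 20 pan-neuronal markers, the microglia libraries held 1770 to 8470 CPM, the astrocyte libraries 2600 to 7970 and the neuron libraries 9210 to 22800. Summed over 20 microglia markers, the same fractions held 7000 to 13500, 631 to 1550 and 155 to 1840 CPM. Over 20 astrocyte markers the sums were 2220 to 6430, 13000 to 30200 and 6220 to 12500 CPM. Oligodendrocyte RNA also remained, at 615 to 2970, 7410 to 46500 and 7490 to 38100 CPM over 20 markers. In the astrocyte and neuron fractions this sum exceeded that of the fraction's own astrocyte or pan-neuronal markers in every batch 1 library. It lay below that sum in every batch 2 library. No marker of these lists was at 0 over a whole fraction. In such bulk samples, fewer cells of a type and less RNA per cell cannot be told apart.

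All 10 genes were counted in all 18 libraries and passed the filter on low counts in every fraction. The lowest count was 49 for Bdnf, and Egr1 never fell below 1686 counts. In TPM, a scale that divides counts by gene length before setting library totals equal, Egr1 was the most abundant of them in each fraction, with a mean level of 604 ± 131 TPM in microglia, 221 ± 135 in astrocytes and 251 ± 112 in neurons (SD, n = 6). Arc followed in neurons with a mean level of 186 ± 55.1 TPM and in astrocytes with 80.6 ± 21.3 TPM, while Nr4a1 followed in microglia with 100 ± 38.8 TPM. Bdnf had the lowest mean level in each fraction, between 6.18 ± 3.70 TPM in microglia and 9.60 ± 3.83 TPM in neurons. By mean CPM, 5 genes were at their highest in neurons and called higher there than in both other fractions (Arc, Npas4, Nr4a2, Egr3 and Bdnf), and 3 were called higher in microglia than in both others (Nr4a3, Egr1 and Egr2).

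**Figure D1:**
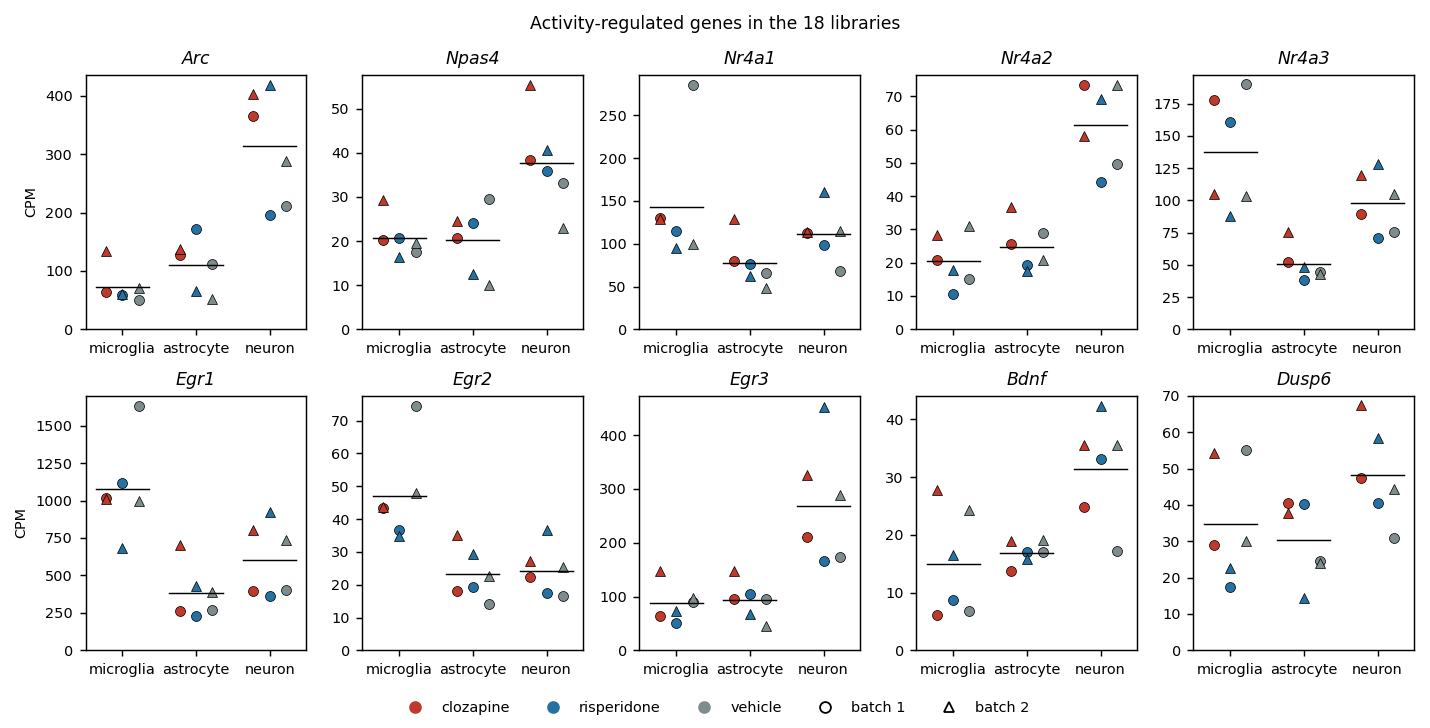
Levels of the 10 activity-regulated genes in CPM (y axis, from 0) in the microglia, astrocyte and neuron fractions (x axis). Each point is 1 library, coloured by treatment, with circles for batch 1 and triangles for batch 2, and bars mark the mean of 6 libraries. Arc runs from 196 to 418 CPM in neurons, above every microglia library (50.9 to 134 CPM), whereas Egr1 is highest in microglia (684 to 1630 CPM).

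The comparison of fractions asked where in the cortex these transcripts were found. Each difference is a log2 fold change, given with its standard error (SE) and fitted over the 18 libraries with the pool as a block, and a gene was called at an adjusted p under 0.05 (edgeR, Benjamini-Hochberg over 28667 genes). Of the 10 genes, 4 were called between microglia and astrocytes, where 19.4% of all genes were called, and all 4 were higher in microglia (9.82% of all genes were called higher and 9.54% lower). Between microglia and neurons 8 were called, 3 higher and 5 lower in microglia, beside 52.0% of all genes, 30.3% higher and 21.6% lower. Between astrocytes and neurons 6 were called, all lower in astrocytes, beside 26.6% of all genes, 15.1% higher and 11.5% lower. The median difference of the 10 genes was 0.16, −0.60 and −0.83 in these 3 comparisons, against 0.044, 0.355 and 0.255 over all genes tested. The libraries of the fractions compared did not overlap for 1, 3 and 3 of the 10 genes, against 11.7%, 24.4% and 8.41% of all genes. The 20 pan-neuronal markers were all called lower in microglia than in neurons (median −1.92) and all lower in astrocytes than in neurons (median −1.44). Their part in the neuron-high genes was not tested.

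Arc (ENSMUSG00000022602.15, chromosome 15, 74540932 to 74544419, minus strand, GRCm39), the synaptic effector, showed the widest gap between fractions. Its level was 50.9, 61.6 and 134 CPM in microglia (lowest, median and highest of 6 libraries), 52.0, 119 and 172 CPM in astrocytes, and 196, 327 and 418 CPM in neurons. Every neuron library lay above every microglia and astrocyte library. The difference was −2.05 (SE 0.27) for microglia minus neurons (adjusted p = 8.04e-06) and −1.48 (SE 0.27) for astrocytes minus neurons (adjusted p = 0.00172). Microglia and astrocytes were not separated, at −0.57 (SE 0.27, adjusted p = 0.164), although within batch 1 the value was −1.08 (adjusted p = 0.00177) and within batch 2 it was 0.07.

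Npas4 (ENSMUSG00000045903.10, chromosome 19, 5034383 to 5040344), a factor induced by depolarisation and known to be largely restricted to neurons, was found in all fractions. It ran at 16.4, 19.9 and 29.3 CPM in microglia (lowest, median, highest), 10.0, 22.4 and 29.5 CPM in astrocytes, and 23.0, 37.1 and 55.5 CPM in neurons, with overlapping ranges. The level was lower than in neurons in all 6 pools, with a difference of −0.76 (SE 0.19, adjusted p = 0.00316) for microglia and −0.88 (SE 0.19, adjusted p = 0.00412) for astrocytes. When libraries were scaled by their total counts alone, the difference between microglia and neurons was −0.37 and not called (adjusted p = 0.0545).

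The NR4A family, orphan nuclear receptors that bind DNA without a known natural ligand, was split between fractions. Nr4a2 (ENSMUSG00000026826.14, chromosome 2, 56996842 to 57014015), known for its role in dopamine neurons, stood at 10.5, 19.3 and 30.9 CPM in microglia, 17.6, 23.2 and 36.7 in astrocytes and 44.2, 63.6 and 73.4 in neurons. No neuron library overlapped another fraction, and the difference from neurons was −1.55 (SE 0.19, adjusted p = 4.40e-06) in microglia and −1.27 (SE 0.19, adjusted p = 0.000917) in astrocytes. Nr4a3 (ENSMUSG00000028341.10, chromosome 4, 48045153 to 48086447) stood instead at 87.6, 133 and 190 CPM in microglia, 38.5, 46.6 and 75.4 in astrocytes and 70.4, 97.3 and 128 in neurons. All microglia libraries lay above all astrocyte libraries, with a difference of 1.51 (SE 0.24, adjusted p = 9.33e-05), and the value for astrocytes minus neurons was −0.93 (SE 0.24, adjusted p = 0.00979, not called under total-count scaling at −0.49). Microglia exceeded neurons by 0.58 (SE 0.24, adjusted p = 0.0482), but the value was 1.30 within batch 1 and −0.32 within batch 2. That call was lost without the vehicle, clozapine or risperidone pool of batch 1, at 0.35, 0.45 and 0.27.

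Nr4a1 (ENSMUSG00000023034.8, chromosome 15, 101152150 to 101172676), which marks recent receptor signalling in lymphocytes and myeloid cells as well as in neurons, ran at 94.5, 122 and 286 CPM in microglia, 48.8, 70.9 and 129 in astrocytes and 68.4, 114 and 161 in neurons. The level in microglia exceeded that in astrocytes by 0.92 (SE 0.28, adjusted p = 0.0216), with values from 0.00 to 2.11 in the 6 pools. Without the vehicle, clozapine or risperidone pool of batch 1 this difference was 0.57, 0.91 and 0.94 and was not called. Neither microglia nor astrocytes were separated from neurons, at 0.37 (SE 0.28, adjusted p = 0.267) and −0.55 (SE 0.27, adjusted p = 0.133). Total-count scaling gave 0.79 for microglia minus neurons and called it (adjusted p = 0.0199), but the median of all genes also rose under that scaling, as given below.

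The EGR factors, zinc-finger proteins that bind GC-rich sites, were divided as well. Egr1 (ENSMUSG00000038418.8, chromosome 18) stood at 684, 1010 and 1630 CPM in microglia, 230, 328 and 704 in astrocytes and 362, 568 and 923 in neurons. The level in microglia exceeded that in astrocytes by 1.68 (SE 0.30, adjusted p = 0.000327) and that in neurons by 1.05 (SE 0.30, adjusted p = 0.00771). Both were smaller within batch 2, where neither was called, at 0.82 within batch 2 and 2.45 within batch 1 for microglia minus astrocytes, and 0.05 within batch 2 and 1.81 within batch 1 for microglia minus neurons. The difference from neurons fell short of the threshold without the vehicle, clozapine or risperidone pool of batch 1, at 0.75, 0.93 and 0.74.

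Egr2 (ENSMUSG00000037868.16, chromosome 10, 67371305 to 67378018), known for its part in myelination by Schwann cells, ran at 35.0, 43.5 and 74.6 CPM in microglia, 14.1, 21.1 and 35.1 in astrocytes and 16.7, 23.9 and 36.7 in neurons. Microglia exceeded astrocytes by 1.10 (SE 0.23, adjusted p = 0.00143) and neurons by 1.07 (SE 0.23, adjusted p = 0.000896), with 1.71 and 1.55 within batch 1 and 0.51 and 0.45 within batch 2. Egr3 (ENSMUSG00000033730.5, chromosome 14, 70314652 to 70320063), a factor that acts downstream of calcium signalling, had the opposite pattern, with 51.7, 81.6 and 148 CPM in microglia, 45.7, 95.9 and 148 in astrocytes and 166, 249 and 453 in neurons. All neuron libraries lay above all others, and the difference from neurons was −1.55 (SE 0.27, adjusted p = 0.000113) in microglia and −1.46 (SE 0.27, adjusted p = 0.00173) in astrocytes. For Egr3 the deficit against neurons was called within both batches, at −1.30 and −1.88 for microglia and −0.92 and −2.22 for astrocytes (batch 1, batch 2). Microglia and astrocytes were not separated, at −0.09 (SE 0.26, adjusted p = 0.915).

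Bdnf (ENSMUSG00000048482.15, chromosome 2, 109505045 to 109557352), the neurotrophin, ran at 6.05, 12.6 and 27.8 CPM in microglia, 13.8, 17.0 and 19.1 in astrocytes and 17.2, 34.3 and 42.3 in neurons. It was lower than in neurons in all 6 pools, with a difference of −1.11 (SE 0.24, adjusted p = 0.000967) for microglia and −0.79 (SE 0.24, adjusted p = 0.0222) for astrocytes. The second call was lost without the batch 2 pool of clozapine or of risperidone, at −0.77 and −0.69. It was also lost under total-count scaling, at −0.43. Dusp6 (ENSMUSG00000019960.9, chromosome 10, 99099093 to 99103351), the ERK phosphatase, showed no called difference, with 17.5, 29.7 and 55.2 CPM in microglia, 14.5, 31.3 and 40.5 in astrocytes and 31, 45.9 and 67.4 in neurons. Its values were −0.44 (SE 0.26, adjusted p = 0.161) for microglia minus neurons and −0.65 (SE 0.26, adjusted p = 0.0695) for astrocytes minus neurons. Without the vehicle pool of batch 1 the difference between microglia and neurons was −0.79 and called, and without the risperidone pool of batch 1 that between astrocytes and neurons was −0.95 and called.

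**Figure D2:**
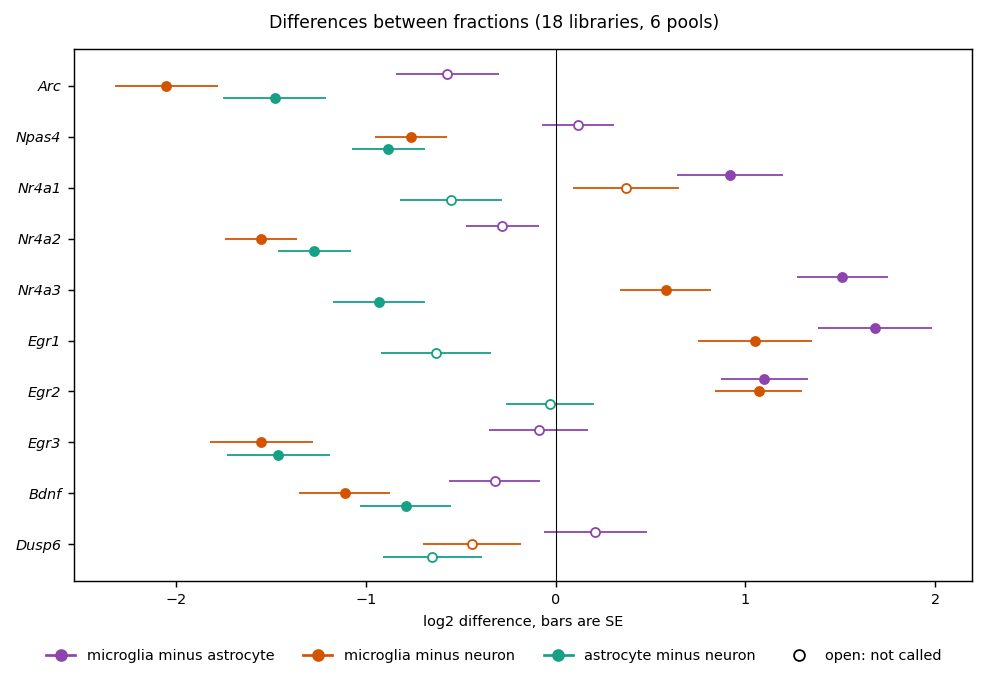
Log2 difference (x axis) of each gene (y axis) between fractions, over 18 libraries with the pool as a block. Points are estimates, horizontal bars are SE, filled points were called at adjusted p under 0.05 and open points were not. Arc, Nr4a2 and Egr3 lie left of 0 in both comparisons with neurons, at −2.05 to −1.27, while Nr4a3, Egr1 and Egr2 lie right of 0 in both comparisons of microglia.

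A list of genes known to respond to the handling of tissue was also higher in the microglia fraction. Of 26 genes known to respond to tissue dissociation, 21 were called higher in microglia than in astrocytes (median 2.60), beside 9.82% of all genes. Heat shock genes and Ccl3 are among the 26. Against neurons 23 were called higher in microglia (median 3.10), beside 30.3% of all genes, and none was lower in either comparison. Between astrocytes and neurons 5 were called higher and none lower (median 0.57), beside 15.1% and 11.5% of all genes. Their summed level was 9030 to 18800 CPM in microglia, 1880 to 3670 CPM in astrocytes and 1390 to 4050 CPM in neurons. This list holds none of the 10 genes, 5 of the 7 AP-1 genes and 6 of the 37 other activity-regulated genes below. Its part in the levels of Egr1, Egr2 and Nr4a3 was not tested. Whether the list itself was high through handling or through cell type was not tested either.

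The other genes of the pathway were divided in the same comparisons. Of 37 other activity-regulated genes, 20 were called between microglia and astrocytes (19 higher, 1 lower), 30 between microglia and neurons (19 higher, 11 lower) and 14 between astrocytes and neurons (4 higher, 10 lower). Of all genes 19.4% were called in the first comparison (9.82% higher, 9.54% lower) and 52.0% in the second (30.3% higher, 21.6% lower). In the third 26.6% were called (15.1% higher, 11.5% lower). Dusp1, a nuclear MAP kinase phosphatase, had a mean of 450 CPM in microglia, 72.7 in astrocytes and 62.2 in neurons, a difference of 3.12 for microglia minus neurons (adjusted p = 9.06e-08). Vgf, a secreted neuropeptide precursor, averaged 63.3 CPM in astrocytes and 162 in neurons, a difference of −1.20 (adjusted p = 0.00182). Of the 7 AP-1 genes, which encode the Fos and Jun factors, 4 were called higher in microglia than in neurons, beside 30.3% of all genes. Among them Junb averaged 239 CPM in microglia and 45.9 in neurons (2.63, adjusted p = 5.37e-07).

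Of 19 upstream regulators and partners, 10 were called lower and 4 higher in microglia than in neurons (median −0.61 against 0.355 over all genes), where 21.6% of all genes were called lower and 30.3% higher. In astrocytes 12 of the 19 were called lower than in neurons and none higher (median −0.62 against 0.255), where 11.5% of all genes were called lower and 15.1% higher. Arnt2, the dimer partner of Npas4, averaged 85.6 CPM in microglia and 348 in neurons (−1.96, adjusted p = 4.72e-06). Mef2c, a calcium-responsive factor, averaged 229 CPM in astrocytes and 645 in neurons (−1.43, adjusted p = 0.00241). Nab2, a co-repressor of EGR factors, averaged 71.4 CPM in microglia and 22.3 in astrocytes (1.72, adjusted p = 2.07e-06). Of 12 genes of ERK feedback, 2 were called higher and 6 lower in microglia than in neurons, beside 30.3% and 21.6% of all genes. Among 8 neurotrophins and receptors, Ntrk2, which encodes the BDNF receptor TrkB, averaged 298 CPM in microglia, 805 in astrocytes and 703 in neurons, with a difference of −1.41 for microglia minus astrocytes (adjusted p = 0.000252).

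The promoters were read from RefSeq (GRCm38.p6) as windows from 250 bases before to 50 bases after an annotated start. Windows were found for 7 of the 10 genes (Npas4, Nr4a1, Nr4a2, Nr4a3, Egr2, Bdnf and Dusp6), 17 windows in all, of which 7 belong to Bdnf and 5 to Egr2. Both strands were searched for the cAMP response element bound by CREB (TGACGTCA), its half-site (TGACG), the TATA box (TATAAA), an EGR site (GCGGGGGCG), the NR4A monomer site NBRE (AAAGGTCA), the CArG box of SRF, and the MEF2 site in a strict and a looser form, the second added after the results of the first were seen. Motifs may overlap, and a half-site may lie inside a full element. The windows of the NR4A genes are shown since these relatives differed between fractions, that of Egr2 for its CArG box, and that of Bdnf since its level moved with batch. Capitals mark every match, of any of these motifs, on either strand.
Nr4a1 (chr15:101266596-101266895, plus strand): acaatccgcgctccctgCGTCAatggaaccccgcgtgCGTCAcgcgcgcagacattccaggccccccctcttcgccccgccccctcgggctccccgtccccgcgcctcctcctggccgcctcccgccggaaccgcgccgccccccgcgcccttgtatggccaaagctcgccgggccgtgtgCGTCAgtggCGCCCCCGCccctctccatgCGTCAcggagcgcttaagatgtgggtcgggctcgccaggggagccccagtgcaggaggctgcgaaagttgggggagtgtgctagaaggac
Nr4a2 (chr2:57123954-57124253, minus strand): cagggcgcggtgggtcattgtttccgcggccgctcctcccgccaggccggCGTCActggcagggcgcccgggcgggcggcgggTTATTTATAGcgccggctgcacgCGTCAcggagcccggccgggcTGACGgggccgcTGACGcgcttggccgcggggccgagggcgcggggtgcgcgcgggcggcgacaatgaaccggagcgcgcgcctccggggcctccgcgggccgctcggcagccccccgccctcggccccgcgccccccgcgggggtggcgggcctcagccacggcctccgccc
Nr4a3 (chr4:48045055-48045354, plus strand): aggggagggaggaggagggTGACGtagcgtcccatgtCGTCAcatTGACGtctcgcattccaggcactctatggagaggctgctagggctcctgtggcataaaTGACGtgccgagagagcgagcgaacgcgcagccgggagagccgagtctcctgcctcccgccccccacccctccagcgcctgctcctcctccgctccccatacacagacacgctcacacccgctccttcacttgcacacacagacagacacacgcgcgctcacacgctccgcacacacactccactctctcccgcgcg
Egr2 (chr10:67537619-67537918, plus strand): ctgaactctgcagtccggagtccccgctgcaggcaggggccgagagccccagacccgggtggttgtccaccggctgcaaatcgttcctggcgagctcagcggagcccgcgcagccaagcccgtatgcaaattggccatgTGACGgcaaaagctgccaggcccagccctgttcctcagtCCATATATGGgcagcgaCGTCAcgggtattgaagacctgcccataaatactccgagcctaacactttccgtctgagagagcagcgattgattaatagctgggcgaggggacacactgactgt
Bdnf (chr2:109692186-109692485, plus strand): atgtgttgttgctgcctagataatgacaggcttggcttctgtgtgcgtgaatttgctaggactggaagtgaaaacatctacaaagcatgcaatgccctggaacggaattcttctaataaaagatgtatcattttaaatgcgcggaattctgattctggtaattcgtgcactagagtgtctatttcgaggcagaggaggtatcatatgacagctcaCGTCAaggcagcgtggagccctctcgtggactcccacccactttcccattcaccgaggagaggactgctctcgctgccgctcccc
The CREB half-site occurred 4 times in each NR4A window, 2 times in the Npas4 window, 2 times in the Egr2 window shown and 1 time in the Bdnf window shown. It occurred in none of the other 6 Bdnf windows and not in the Dusp6 window. Of 32851 promoter windows of the same length, 20.8% hold at least 1. No window of the 7 genes held the full element, which 1.79% of all windows hold. The CArG box lies 72 bases before the start in the Egr2 window shown, recurs in 2 windows that overlap it and has a match in another Egr2 window, and 1.63% of all windows hold one. The EGR site lies 60 bases before the Nr4a1 start (2.91% of all windows), and the TATA box letters lie 164 bases before the Nr4a2 start (13.6%). The NBRE and the strict MEF2 form were not in these windows, and 1.51% and 0.557% of all windows hold them. The looser MEF2 form, held by 3.19% of all windows, had 1 match, in the Nr4a2 window, which begins at position −167 from the start and overlaps the TATA box letters. Any link between these motifs and the levels in the fractions was not tested.

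The labels place each library in batch 1 or batch 2, so every treatment could be compared across batches within a fraction (n = 3 and 3, treatment in the fit). Of the 10 genes, 2 were called in microglia, beside 4.25% of 32846 genes, 2 in astrocytes, beside 5.64% of 31022 genes, and 0 in neurons, beside 0.333% of 25510 genes. In neurons 8 of the 10 had an unadjusted p under 0.05, all higher in batch 2, and DESeq2 called 2 of them (Egr1 and Egr3). The batches did not overlap for 3 of the 10 genes in microglia, 2 in astrocytes and 6 in neurons, against 14.7%, 28.7% and 30.7% of all genes. Over the 10 genes the median difference stood at 0.06 for microglia, 0.06 for astrocytes and 0.55 for neurons, against −0.054, 0.135 and −0.1 over all genes.

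Bdnf moved most with batch, and did so in microglia. It stood at 27.8 CPM with clozapine, 16.5 with risperidone and 24.3 with vehicle in batch 2, against 6.05, 8.67 and 6.75 CPM with the same treatments in batch 1. Every batch 2 library lay above every batch 1 library, and the difference was 1.59 (SE 0.29, adjusted p = 0.00113). In the same libraries the 20 pan-neuronal markers summed to 8470, 3170 and 5400 CPM in batch 2 and 2650, 1770 and 2660 CPM in batch 1 (clozapine, risperidone and vehicle). Of them 16 were called higher in batch 2 and none lower (median 1.25). The part of neuronal RNA in the Bdnf difference was not tested. In astrocytes and neurons Bdnf differed by 0.25 (SE 0.27, adjusted p = 0.6) and 0.60 (SE 0.22, adjusted p = 0.139).

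Nr4a3 went the other way in microglia. It stood at 105, 87.6 and 103 CPM in batch 2 (clozapine, risperidone and vehicle) and at 178, 161 and 190 CPM in batch 1, a difference of −0.91 (SE 0.19, adjusted p = 0.00372). The 2 batches did not overlap, and the values within a treatment ran from −0.89 to −0.76. With treatment in the fit, a library whose partner of the same treatment is left out carries no weight in the batch difference. In any fraction, both refits of a treatment therefore rest on the same libraries of the other 2 treatments and are 1 check. Without either clozapine or either risperidone microglia library Nr4a1 was called lower in batch 2 as well, at −0.90 and −0.82, beside 1.02% and 1.00% of all genes called lower without the batch 1 or batch 2 clozapine library and 1.24% and 1.30% without the risperidone ones. Without the batch 1 vehicle library Egr3 was called higher, at 0.82, beside 3.01% of all genes. In neurons Nr4a3 stood at 120, 128 and 105 CPM in batch 2 and 89.4, 70.4 and 75.3 CPM in batch 1, a difference of 0.56 (SE 0.19, adjusted p = 0.119) that was not called. In microglia, 4 of the 26 dissociation genes were called lower in batch 2 and none higher (median −0.34), and their sum was 9030 to 11700 CPM in batch 2 and 12900 to 18800 CPM in batch 1. Their part in the Nr4a3 difference was not tested.

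Egr1 and Egr2 were the members called in astrocytes. Egr1 stood at 704, 427 and 387 CPM in batch 2 (clozapine, risperidone and vehicle) and 263, 230 and 270 CPM in batch 1, a difference of 1.02 (SE 0.31, adjusted p = 0.0380). Egr2 stood at 35.1, 29.5 and 22.8 CPM in batch 2 and 18.0, 19.4 and 14.1 CPM in batch 1, a difference of 0.83 (SE 0.26, adjusted p = 0.0477). Neither gene overlapped between batches. The Egr1 call was lost without either vehicle or either risperidone astrocyte library, at 0.99 to 1.21. The Egr2 call was lost without either astrocyte library of any treatment, at 0.74 to 0.85, and with DESeq2 (0.81). For each gene the 2 refits of a treatment are 1 check, as above. In the same comparison 18 of the 26 dissociation genes were called higher in batch 2 and none lower (median 1.16), with sums of 3630 to 3670 CPM in batch 2 and 1880 to 2150 CPM in batch 1. Of the 7 AP-1 genes 5 were called higher, as for Fos, which averaged 636 CPM in batch 2 and 276 CPM in batch 1 (1.27, adjusted p = 0.0151). Their part in the Egr1 and Egr2 differences was not tested.

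**Figure D3:**
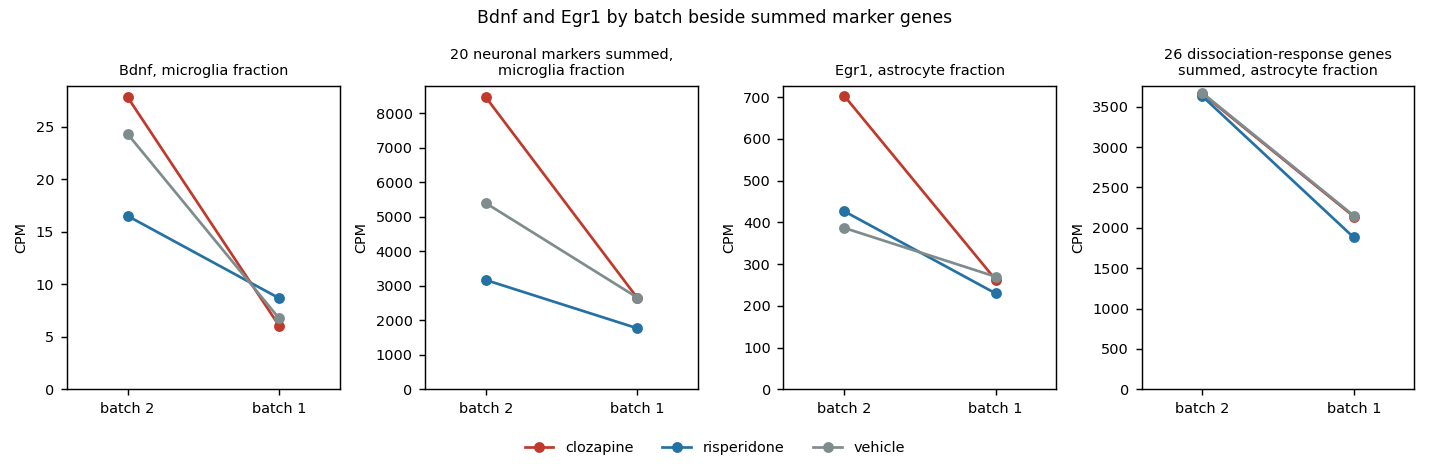
Levels in CPM (y axes, from 0) in batch 2 and batch 1 (x axes), with a line per treatment joining its 2 pools. Bdnf and the summed pan-neuronal markers were both higher in batch 2 in microglia, at 16.5 to 27.8 CPM against 6.05 to 8.67 CPM for Bdnf, and Egr1 and the summed dissociation genes were both higher in batch 2 in astrocytes.

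In neurons Egr1 had the largest value, at 805, 923 and 734 CPM in batch 2 (clozapine, risperidone and vehicle) against 396, 362 and 402 CPM in batch 1. Its difference was 1.05 (SE 0.23, adjusted p = 0.0612), short of the threshold, and Egr3 followed with 325, 453 and 288 CPM in batch 2 against 210, 166 and 173 CPM in batch 1 (0.91, SE 0.22, adjusted p = 0.0677). Without the batch 1 or the batch 2 clozapine neuron library 7 of the 10 genes were called higher in batch 2, beside 9.63% and 9.64% of all genes. Without the batch 2 risperidone library Egr1 was called (0.99), beside 1.06% of all genes called higher. In neurons the pan-neuronal markers summed to 22800, 21200 and 19100 CPM in batch 2 and 17400, 9210 and 12800 CPM in batch 1, and none of them was called. The 10 markers of GABAergic neurons summed to 1220, 1060 and 1190 CPM in batch 2 and 526, 366 and 451 CPM in batch 1, with 5 called higher, Slc32a1 (1.86), Gad1 (1.60) and Npy (1.99) among them. The dissociation genes summed to 2120, 3000 and 4050 CPM in batch 2 and 1980, 1390 and 2090 CPM in batch 1, and the AP-1 genes to 911, 1250 and 1030 CPM in batch 2 and 661, 466 and 800 CPM in batch 1. The 20 oligodendrocyte markers went the other way, at 7490, 8640 and 7560 CPM in batch 2 and 38100, 17100 and 20600 CPM in batch 1 in neurons. In astrocytes they held 12000, 9380 and 7410 CPM in batch 2 and 28900, 46500 and 32100 CPM in batch 1. The part of these lists was not tested. In astrocytes the values of Arc and Npas4 were −0.72 (SE 0.28, adjusted p = 0.123) and −0.66 (SE 0.29, adjusted p = 0.169), neither called. Arc stood there at 137, 64.9 and 52.0 CPM in batch 2 and 127, 172 and 111 CPM in batch 1 (clozapine, risperidone and vehicle). The pan-neuronal markers of the same astrocyte libraries summed to 7970, 2600 and 2740 CPM in batch 2 and 7160, 6010 and 6520 CPM in batch 1, with 4 of 20 called lower, Gap43, Celf4 and Nefl among them, and none higher. Their part was not tested. Without either clozapine astrocyte library Arc, Npas4 and Egr3 were called lower in batch 2, at −1.16 or −1.15 for Arc and Npas4 and −0.75 for Egr3, while 8.97% and 10.4% of all genes were called lower in these 2 refits.

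Other activity-regulated genes moved with batch in both directions. Of the 37 in the list, 7 were called higher and 6 lower in batch 2 in microglia, where 4.25% of all genes were called. In astrocytes 11 were called higher and none lower, beside 5.64% of all genes called. In neurons 1 was called higher and none lower, beside 0.333%. Ptgs2, the inducible cyclooxygenase, averaged 51.1 ± 19.6 CPM in batch 2 and 180 ± 70.0 CPM in batch 1 in microglia (SD, n = 3 each; −1.90, SE 0.23, adjusted p = 2.7e-05 in edgeR). Scg2, a secretory granule protein of neurons and endocrine cells, averaged 144 ± 59.3 CPM in batch 2 and 45.8 ± 13.0 CPM in batch 1 in the same libraries (1.53, SE 0.20, adjusted p = 4.92e-05 in edgeR). The pan-neuronal markers summed there to 3170 to 8470 CPM in batch 2 and 1770 to 2660 CPM in batch 1. Their part in the Scg2 difference was not tested.

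Whether the batch difference itself differed between fractions was tested over the 18 libraries with the pool as a block, a test chosen after the batch values were seen. Of the 10 genes 6 were called (12.3% of 37310 genes), namely Arc, Nr4a3, Egr1, Egr2, Egr3 and Bdnf. Nr4a3 had the smallest adjusted p (0.00441), with differences of −0.91 in microglia, 0.34 in astrocytes and 0.56 in neurons. Egr1 followed (adjusted p = 0.00723), with −0.54 in microglia, 1.02 in astrocytes and 1.05 in neurons. With 1 pool left out the number called ran from 1 to 6. It was 1 without the vehicle pool of batch 1 (4.21% of all genes), 2 without that of batch 2 (1.94%), 1 without the risperidone pool of batch 1 (0.675%) and 3 without that of batch 2 (5.59%). It was 6 without the clozapine pool of batch 1 (18.4%) and 4 without that of batch 2 (15.7%). Nr4a3 was called in all 6 of these fits, with adjusted p up to 0.0495.

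**Figure D4:**
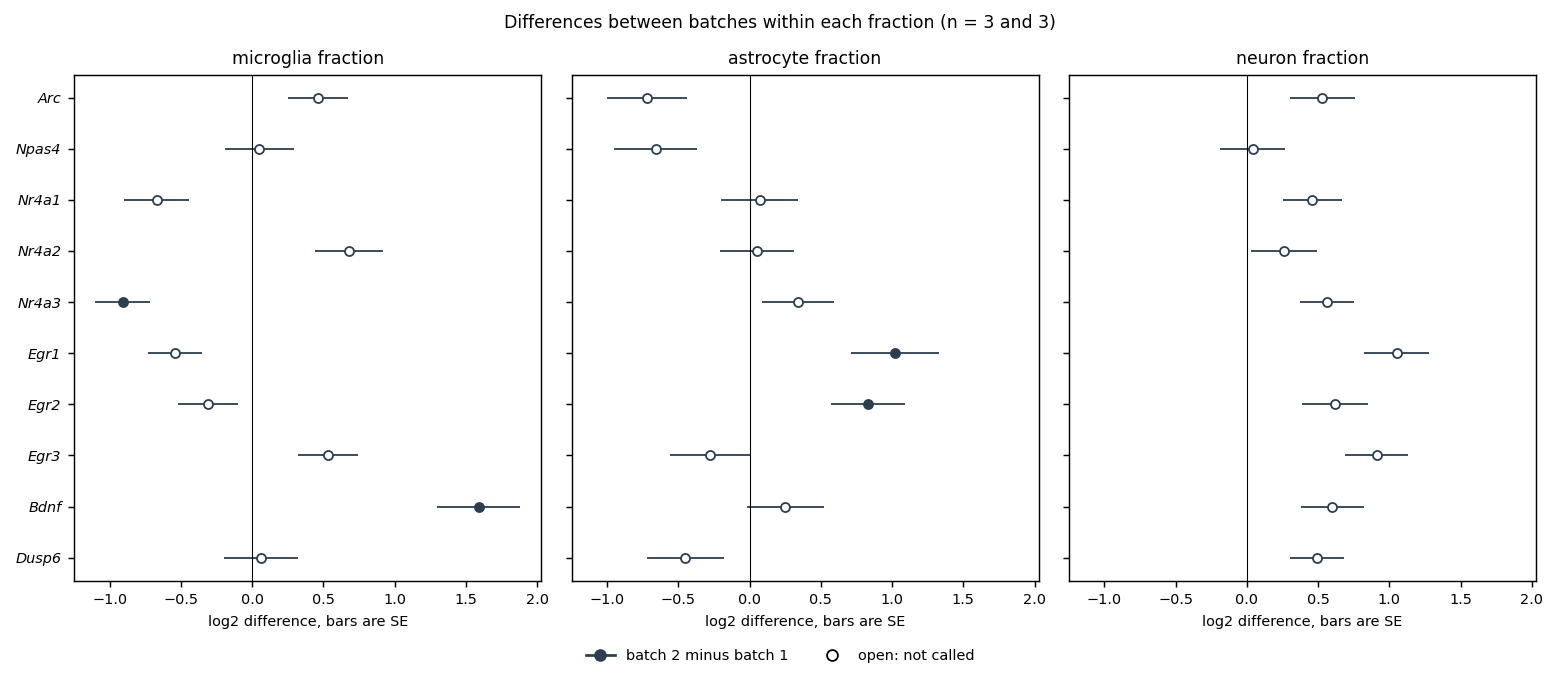
Log2 difference between batch 2 and batch 1 (x axis) for each gene (y axis) in the microglia, astrocyte and neuron fractions, with treatment in the fit. Points are estimates, bars are SE, and filled points were called. Nr4a3 and Egr1 lie left of 0 in microglia, at −0.91 and −0.54, and right of 0 in the other fractions.

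The drug comparisons asked whether treatment altered these genes in each fraction (n = 2 against 2), and both drugs were set against the same vehicle libraries. None of the 10 genes was called for clozapine against vehicle, risperidone against vehicle or clozapine against risperidone in any fraction by edgeR, and 0% of all genes were called in these 9 comparisons. Over all genes 200 to 2425 had an unadjusted p under 0.05, and DESeq2 called 0 to 12, none of the 10 among them. Of the 10 genes, 1 had an unadjusted p under 0.05 for risperidone against vehicle in microglia and 1 for clozapine against risperidone in microglia, Dusp6 in both, and none in the other 7 comparisons. In 1080 refits under other settings or with a library left out, no member was called. The values below are therefore given without a direction claimed.

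In microglia after clozapine the 10 genes were split, 5 above and 5 below vehicle, with a median of 0.01 against −0.015 over all genes. Arc stood at 63.3 and 134 CPM with clozapine (batch 1, batch 2) and 50.9 and 71.5 CPM with vehicle, a value of 0.66 (SE 0.36, adjusted p = 1). Nr4a1 stood at 130 and 129 CPM with clozapine and 286 and 100 CPM with vehicle, a value of −0.60 (SE 0.43, adjusted p = 1). The vehicle libraries lay on both sides of the clozapine libraries for Nr4a1, and without the batch 1 vehicle library the value was 0.37. Groups did not overlap for 2 of the 10 genes, Npas4 and Egr2, against 29.1% of all genes. The pan-neuronal markers of these libraries summed to 2650 and 8470 CPM with clozapine and 2660 and 5400 CPM with vehicle. The dissociation genes summed to 13400 and 11700 CPM with clozapine and 18800 and 10400 CPM with vehicle, and the AP-1 genes to 1320 and 1560 CPM with clozapine and 3130 and 1550 CPM with vehicle. The part of these lists was not tested.

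In microglia after risperidone 8 of the 10 genes lay below vehicle, with a median of −0.44 against 0.017 over all genes. Dusp6 stood at 17.5 and 22.7 CPM with risperidone and 55.2 and 30.2 CPM with vehicle, a value of −0.97 (SE 0.40, adjusted p = 0.929). Egr2 stood at 36.8 and 35.0 CPM with risperidone and 74.6 and 48.0 CPM with vehicle, a value of −0.65 (SE 0.33, adjusted p = 0.929). The groups did not overlap for these and for Egr3, 3 of the 10 genes against 39.1% of all genes. In the same libraries the pan-neuronal markers summed to 1770 and 3170 CPM with risperidone and 2660 and 5400 CPM with vehicle. The dissociation genes summed to 12900 and 9030 CPM with risperidone and 18800 and 10400 CPM with vehicle, and their part was not tested. Between the drugs in microglia, all 10 genes read higher with clozapine (median 0.27 against −0.037 over all genes), 5 of them without overlap against 44.7% of all genes. Dusp6 had the largest of these values, with 29.1 and 54.4 CPM after clozapine and 17.5 and 22.7 CPM after risperidone (0.91, adjusted p = 0.671).

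In astrocytes 9 of the 10 genes lay above vehicle after clozapine, with a median of 0.45 against −0.041 over all genes. Nr4a1 stood at 80.2 and 129 CPM with clozapine and 65.9 and 48.8 CPM with vehicle, a value of 0.78 (SE 0.39, adjusted p = 1). Egr3 stood at 95.9 and 148 CPM with clozapine and 95.9 and 45.7 CPM with vehicle, a value of 0.71 (SE 0.45, adjusted p = 1), so that its batch 1 libraries were alike. The groups did not overlap for 5 of the 10 genes (Arc, Nr4a1, Nr4a3, Egr3 and Dusp6), against 33.6% of all genes, Egr3 by less than the rounding of its values. The pan-neuronal markers summed to 7160 and 7970 CPM with clozapine and 6520 and 2740 CPM with vehicle, with all 20 reading higher and none called, and their part was not tested. After risperidone 5 of the 10 genes lay above and 5 below vehicle (median 0.06 against −0.006 over all genes), 2 of them without overlap against 18.2% of all genes. Between the drugs 9 of 10 read higher with clozapine (median 0.45), 3 without overlap against 21.8% of all genes.

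In neurons all 10 genes read higher with clozapine than with vehicle, with a median of 0.20 against −0.035 over all genes. Npas4 stood at 38.5 and 55.5 CPM with clozapine and 33.2 and 23.0 CPM with vehicle, a value of 0.73 (SE 0.33, adjusted p = 1). Arc stood at 365 and 403 CPM with clozapine and 211 and 289 CPM with vehicle, a value of 0.60 (SE 0.44, adjusted p = 1). These and Dusp6 were the 3 genes whose groups did not overlap, against 29.3% of all genes. After risperidone 9 of 10 read higher than vehicle, with a median of 0.38 against −0.002 over all genes, and Bdnf stood at 33.1 and 42.3 CPM with risperidone and 17.2 and 35.6 CPM with vehicle (0.51, SE 0.39, adjusted p = 1). Npas4 was the gene without overlap there, against 18.2% of all genes. Between the drugs the 10 genes were split evenly and all overlapped, whereas 28.3% of all genes did not. The pan-neuronal markers in neurons summed to 17400 and 22800 CPM with clozapine, 9210 and 21200 CPM with risperidone, and 12800 and 19100 CPM with vehicle, and their part was not tested.

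**Figure D5:**
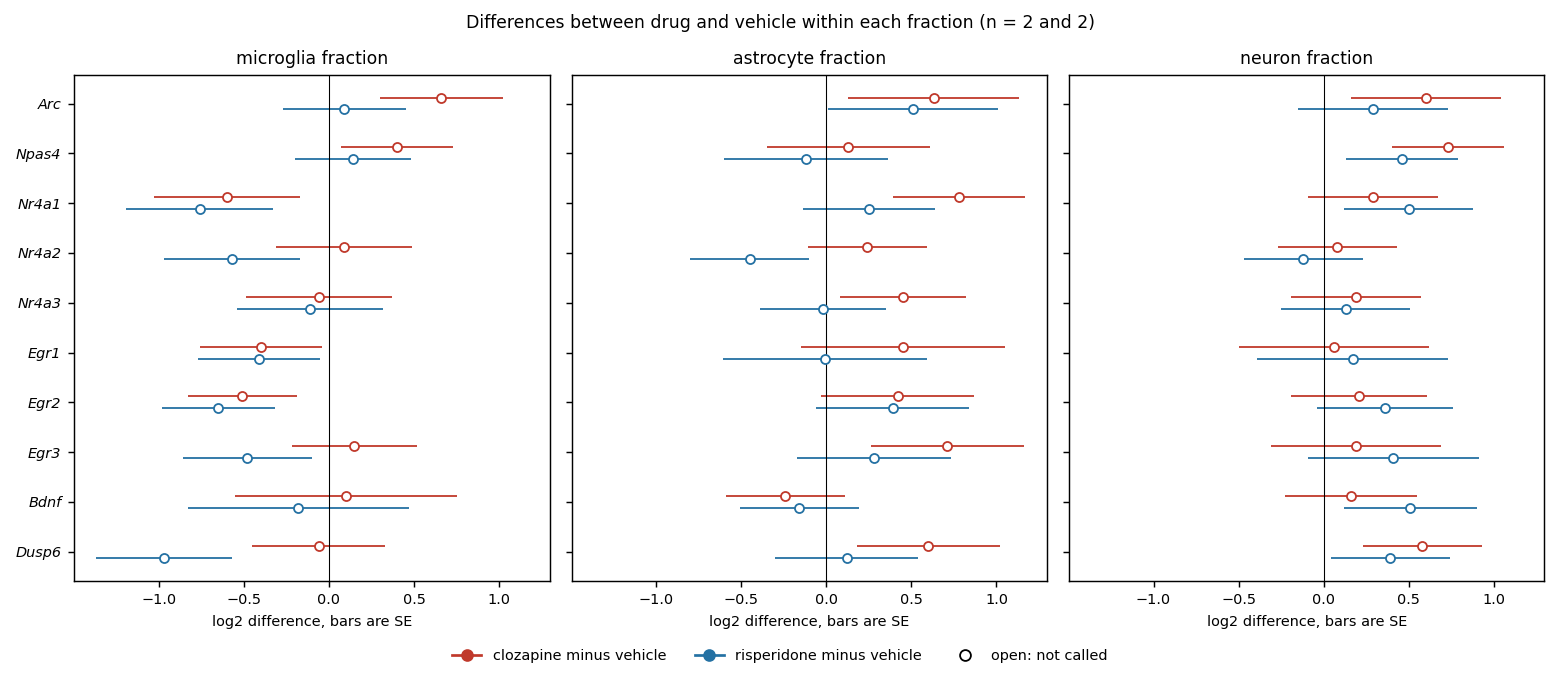
Log2 difference from vehicle (x axis) for each gene (y axis) after clozapine and after risperidone in each fraction. Points are estimates, bars are SE, and all points are open since none was called. The values run from −0.97 for Dusp6 after risperidone in microglia to 0.78 for Nr4a1 after clozapine in astrocytes.

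Whether a drug difference differed between fractions was tested with an interaction over the 18 libraries. None of the 10 genes was called for either drug, with 0% of 37310 genes called by edgeR, 697 at an unadjusted p under 0.05 for clozapine and 401 for risperidone. DESeq2 called 0 and 1 genes, neither count including a member. The smallest member p was 0.0715 for Dusp6 with risperidone (adjusted p = 1). No member of the other activity-regulated, AP-1, ERK feedback, regulator or neurotrophin lists was called in a drug comparison.

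The genes whose levels followed each member most closely were sought among 12946 genes averaging at least 5 CPM, by Pearson's r of log2 CPM over the 18 libraries after subtracting each fraction's mean. Libraries of a pool share animals and those of a batch share a batch number, so r is a description. Arc was closest to Ncaph2 (0.97) and Fkbp8 (0.96), and Egr3 to Dhx30 (0.96) and Dcp2 (0.95). Egr1 was closest to Jund (0.91) and Spty2d1 (0.88), and Egr2 to Jund and Jun (0.87 each). Bdnf was closest to the protocadherins Pcdha11 and Pcdhac1 (0.94 each), and Dusp6 to Mpi (0.93) and the clock gene Per1 (0.92). Nr4a2 was closest to Itpka (0.91) and Adcy5 (0.90), Nr4a1 to Ascc1 (0.83) and Igfbp4 (0.82), Nr4a3 to Ncoa4 (0.85) and Irs2 (0.84), and Npas4 to Cfap36 and Elac2 (0.87 each).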

How the data were processed

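The authors deposited 1 table of counts per library. They were made with featureCounts v2.0.8 from exons grouped by gene identifier on GRCm39, per the file headers. Reads overlapping several genes were kept and strand was not used, so overlapping and antisense genes are uncertain. Mates of a pair count separately. No aligner is named in the sources used here. Per the labels' protocols, ribosomal RNA was removed and libraries were read as paired ends. Per the submitters' processing notes, FastQC was run.

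Gene symbols came from GENCODE vM21 by identifier (52029 of 56953). The members and gene lists were chosen with earlier results of these data known. Tests used R 4.3.3, edgeR 4.0.16 (quasi-likelihood, TMM, filterByExpr, Benjamini-Hochberg), limma 3.58.1 and DESeq2 1.42.0, and were tested on simulated data. SE is the absolute log2 difference over the square root of F. CPM is scaled over 18 libraries, while each fit rescales its own. Drug fits had 6 libraries and 3 residual degrees of freedom, batch fits 2, fraction fits 10 and drug interactions 9. Each pool holds 5 animals. The p-values of drug and drug interaction fits measure the spread between the 2 pools of a treatment, which also differ in batch. The drug interaction fit takes the 3 libraries of a pool as independent, although they share animals. Those of batch fits measure how the batch difference varies between treatments, since each treatment has 1 pool per batch. Fraction and batch by fraction fits hold the pool as a block, so theirs measure how fraction differences vary between pools. Batch numbers pair the samples by label, and same-batch libraries of a fraction deviated together (r = 0.17 to 0.70 over 15274 genes). Named genes are the 10 members, up to 3 called genes of each other list by smallest p, and the 2 most alike per member. Alternatives were the replicate block, DESeq2, RLE and total-count scaling, no filter, subsets and each library or pool left out.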

Additional observations from a re-analysis of the deposited data

Results flagged for a closer look

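Among the 6 libraries of a fraction, 4 of the 30 gene and fraction combinations had a library far from the others. The rule used gives about 1 in 20 for independent values of a normal spread. Combinations of 1 fraction share their libraries, so the 4 are not independent. All 4 were in microglia, where 6.51% of the 32846 genes tested had such a library. With clozapine in batch 2, Arc stood at 134 CPM and Npas4 at 29.3 CPM, above the 5 other libraries. The 20 pan-neuronal markers of this library summed to 8470 CPM, against 1770 to 5400 CPM in the others. With vehicle in batch 1, Nr4a1 stood at 286 CPM and Egr2 at 74.6 CPM, again above the 5 others. That library also held the highest sums of dissociation genes (18800 CPM, the others 9030 to 13400), AP-1 genes (3130 CPM, the others 1170 to 1560) and erythrocyte markers (14200 CPM, the others 1100 to 9270). The part of these lists in the 4 values was not tested. These treatment groups hold 2 libraries each, so the drug values of these genes in microglia rest on them.

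The difference between batches was itself different between fractions for 6 of the 10 genes in edgeR's test of the interaction, which called 12.3% of all genes. Leaving out 1 pool gave 1 to 6 calls, 1 without the batch 1 vehicle pool or the batch 1 risperidone pool, and of the 6 genes Nr4a3 alone was called in every such fit. The adjusted p was 0.022 for Arc, 0.00441 for Nr4a3, 0.00723 for Egr1, 0.042 for Egr2, 0.0489 for Egr3 and 0.0301 for Bdnf. The log2 difference of Arc stood at 0.46 for microglia, −0.72 for astrocytes and 0.53 for neurons, none of them called within its fraction.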

How the results depend on the processing

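The 1080 refits of member values in drug comparisons and the 100 in drug interactions kept every member uncalled, and the sign changed by more than 1 SE in 36 drug values, so no direction was claimed. Of 420 refits between fractions, 38 lost a call, 12 gained one and 1 turned, Nr4a3 in microglia minus neurons at −0.32 within batch 2. The number of members called between microglia and astrocytes (4) was 1 in vehicle libraries with the replicate block. It was 6 within batch 1 and 1 within batch 2, and ran from 3 to 4 with a pool left out. Between microglia and neurons (8) it was 3 in vehicle libraries with the block, and 6 to 8 with a pool left out. Within batch 1 it was 9 there, and within batch 2 it was 6. Between astrocytes and neurons (6) it was 0 in vehicle libraries with the block, and 5 to 7 with a pool left out. For that comparison it was 4 within batch 1 and 9 within batch 2. The total-count scaling and the batch by fraction fit were added after values were seen. Over all genes, the 0 drug calls became 0 to 10 with the replicate block and 4 to 171 without a filter. The fraction fits without the pool block called 4 members between microglia and astrocytes, 7 between microglia and neurons and 5 between astrocytes and neurons. In batches, the 2 astrocyte calls became 1 with DESeq2 and 0 without a low-count filter, and 0 to 4 with a library left out. The 0 neuron calls became 2 with DESeq2, 1 with total-count scaling and 2 without a filter, and 0 to 7 with a library left out. The 2 microglia calls were 2 to 3. The 6 calls of batch by fraction were 3 with total-count scaling and 1 to 6 with a pool left out. Subsets also hold fewer libraries, and the cause of these changes was not tested.

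Total-count scaling moved the median of all genes to 0.724 from 0.355 for microglia minus neurons and to 0.634 from 0.255 for astrocytes minus neurons. For batch 2 minus batch 1 it moved to 0.594 from 0.135 in astrocytes and to −0.307 from −0.1 in neurons, so members are read against those medians. The replicate block changed no member's call in the drug comparisons or drug interactions. Depth limits Bdnf, Npas4 and Nr4a2, with counts as low as 49, 74 and 73. Drug values rest on 2 libraries a group. Where a library was left out, the lone sample of its group was assumed to vary like the others. In batch fits that sample carries no weight in the batch difference, so leaving out either library of a treatment is 1 check.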
